A study of Mus musculus with 2 samples.

Results

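The constitutive proteasome subunit genes were described in germinal center B cells by droplet single-cell RNA sequencing of transcript 3′ ends. Members were the genes named Psma, Psmb, Psmc or Psmd with a number, without the 3 immunoproteasome genes Psmb8, Psmb9 and Psmb10, that had at least 50 unique molecular identifiers (UMIs, tags that each mark 1 captured RNA molecule) over both libraries in kept barcodes. This rule took 34 of the 36 genes with such names, of 30905 genes listed. The 2 genes left out were Psma8, a testis-associated alpha subunit with 10 UMIs, and Psmb11, the thymus-associated beta subunit with 2 UMIs, whereas the member with the fewest UMIs, Psmd5, had 2918. The cells were germinal center B cells sorted from spleens of 8-week-old C57BL/6J mice, an inbred strain. Per the design text the mice were SRBC immunized, that is, given sheep red blood cells to induce germinal centers. No genotype, treatment or time sets the 2 libraries, called library 1 and library 2, apart, so that they form 1 group and the comparisons are between classes of cells within them. Whether each library was made from its own animals is not given in the labels. The p-values thus measure only the counting noise of UMIs and the disagreement between these 2 libraries, shared across genes, which may be technical.

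The proteasome degrades proteins that carry ubiquitin chains. Its 20S core is a barrel of outer alpha rings, which gate the channel, and inner beta rings, which hold the peptidase sites, and the 19S cap recognizes, unfolds and feeds in substrates through a ring of ATPases (Psmc genes) and a set of non-ATPase subunits (most Psmd genes). Germinal center B cells divide fast in the dark zone and are selected in the light zone, where a short pulse of Myc marks cells chosen for another round, and in cells exposed to interferon the peptidase subunits can be exchanged for immunoproteasome forms.

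Promoter sequences are shown for 4 members on which the results turn: Psmb5 and Psmb6, peptidase subunits whose cell cycle values are given below, Psmc1, the member that was higher in G2/M-high than in S-high cells, and Psma5, a member that varied with cell depth and with Myc. They come from the RefSeq table for GRCm38.p6, are written 5′ to 3′ on the gene's strand, and are limited to upstream bases outside every exon of GENCODE M21. Capitals mark matches, on either strand, to the motifs searched.
Psmb5, chr14:54618023-54618245, minus strand: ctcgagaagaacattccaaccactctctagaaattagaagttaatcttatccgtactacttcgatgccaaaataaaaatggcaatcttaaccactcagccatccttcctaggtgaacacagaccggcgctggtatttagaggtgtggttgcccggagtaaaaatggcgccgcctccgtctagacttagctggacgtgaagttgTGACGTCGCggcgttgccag
Psmb6, chr11:70525107-70525356, plus strand: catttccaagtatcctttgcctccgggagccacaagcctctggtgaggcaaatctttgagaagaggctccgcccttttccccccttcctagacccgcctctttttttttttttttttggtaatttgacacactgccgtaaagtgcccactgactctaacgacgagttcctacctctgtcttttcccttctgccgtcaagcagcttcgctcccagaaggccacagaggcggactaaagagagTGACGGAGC
Psmc1, chr12:100109952-100110153, plus strand: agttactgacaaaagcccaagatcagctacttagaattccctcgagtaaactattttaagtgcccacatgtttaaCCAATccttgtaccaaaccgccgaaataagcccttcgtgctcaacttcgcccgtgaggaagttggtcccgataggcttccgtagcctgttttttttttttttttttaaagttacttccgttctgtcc
Psma5, chr3:108256676-108256877, plus strand: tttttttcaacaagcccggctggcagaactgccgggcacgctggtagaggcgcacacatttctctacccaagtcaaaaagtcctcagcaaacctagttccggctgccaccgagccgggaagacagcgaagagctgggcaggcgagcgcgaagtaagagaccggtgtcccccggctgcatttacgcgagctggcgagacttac
The motifs were TGACNNNGC, the core of the antioxidant response element that NFE2L1 and NFE2L2 bind, CCAAT, and the E-box CACGTG; no match to 1 motif overlapped a match to another in a member's promoter. Entries were found for 28 of 34 members (those without were Psmb1, Psmb2, Psmb7, Psmc3, Psmd3 and Psmd7). In the 250 bases before the start, TGACNNNGC was found in 5 of the 28 members (17.9%), namely Psmb5, Psmb6, Psmc6, Psmd9 and Psmd12, against 10.2% of all 32851 promoters. CCAAT was found in 11 members (39.3%, against 33.9%) and CACGTG in 2, Psma4 and Psmd9 (7.14%, against 6.02%). A member counted if any of its promoters matched, whereas the shares over all promoters count each promoter. Counted by promoter, TGACNNNGC matched 5, CCAAT 11 and CACGTG 2 of the members' 30 promoters. A match describes letters and is not a binding site.

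Barcodes were kept from 500 genes and 1000 UMIs upward and up to a mitochondrial share of 20%, which left 5142 of 8765 barcodes in library 1 and 3526 of 7868 in library 2, with 58915363 and 41246438 UMIs and median depths of 8183.5 and 8243 UMIs. The libraries shared 22 barcodes, 9 of them among those kept. All 12 germinal center B cell markers examined were detected, in 48.9% to 99.5% of cells in both libraries. Of the plasmablast markers Jchain had a UMI in 84.4% and 83.9% of cells and Xbp1 in 42.5% and 44.6%, while Prdm1, the factor that drives plasma cell fate, had 1 in 1.17% and 1.08%, Irf4 in 8.32% and 7.71% and Sdc1 in 0.544% and 0.511%. Of the naive or memory B cell markers, Fcer2a was found in 48.7% and 48.6% of cells, Cd44 in 39.9% and 38.7% and Cd38 in 9.2% and 11.3%, and Ccr6 and Bcl2 in 2.31% to 6.55%. Each marker of macrophages, T cells, erythroid cells, natural killer cells, stromal cells, neutrophils, platelets and dendritic cells was found in at most 1.93% of cells, and Ncr1, S100a9, Siglech, Col1a2, Pf4 and Ppbp were at 0 in both libraries.

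Together the 34 members gave 6173 CPM (counts of UMIs per 1000000 UMIs of the library or cell class) in library 1 and 7165 in library 2, which is 0.617% and 0.716% of all UMIs. Library 2 was thus 1.16 times as high, and 33 of 34 members were higher there, with ratios from 0.988 (Psmd1, a large scaffold of the cap) to 1.36. Library was a term in each main test below, since every class occurs in both libraries. A 3′ UMI marks a molecule whatever its length, so levels in CPM are compared between genes without a length correction.

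Levels followed the place of the subunit in the particle. The 7 beta ring genes had a median of 284 CPM (mean of the libraries) and the 7 alpha ring genes 246, against 163 for the 6 ATPases, 139 for the 11 non-ATPases and 35.4 for Psmd5, Psmd9 and Psmd10, which encode chaperones that help to assemble the cap and leave it. The chaperones were the 3 lowest members, at 29.6 to 57.5, and did not overlap any other member in either library. Psma7, an alpha ring subunit, was the highest member at 476 and 540 CPM in libraries 1 and 2. Psmb1 (375 and 436) and Psmb4 (365 and 398), beta ring subunits without a peptidase site, came next. These neighbours lay closer to each other than the libraries did. Of the peptidase subunits, Psmb6, with the caspase-like site, had 276 and 312, Psmb5, with the chymotrypsin-like site, 254 and 313, and Psmb7, with the trypsin-like site, 182 and 194. Psmb7 lay below both others in each library, while Psmb5 and Psmb6 changed order between the libraries. Over all members the highest mean level was 17.2 times the lowest, and within the ATPase ring, the highest (Psmc3) was 1.58 times the lowest (Psmc6).

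**Figure D1:**
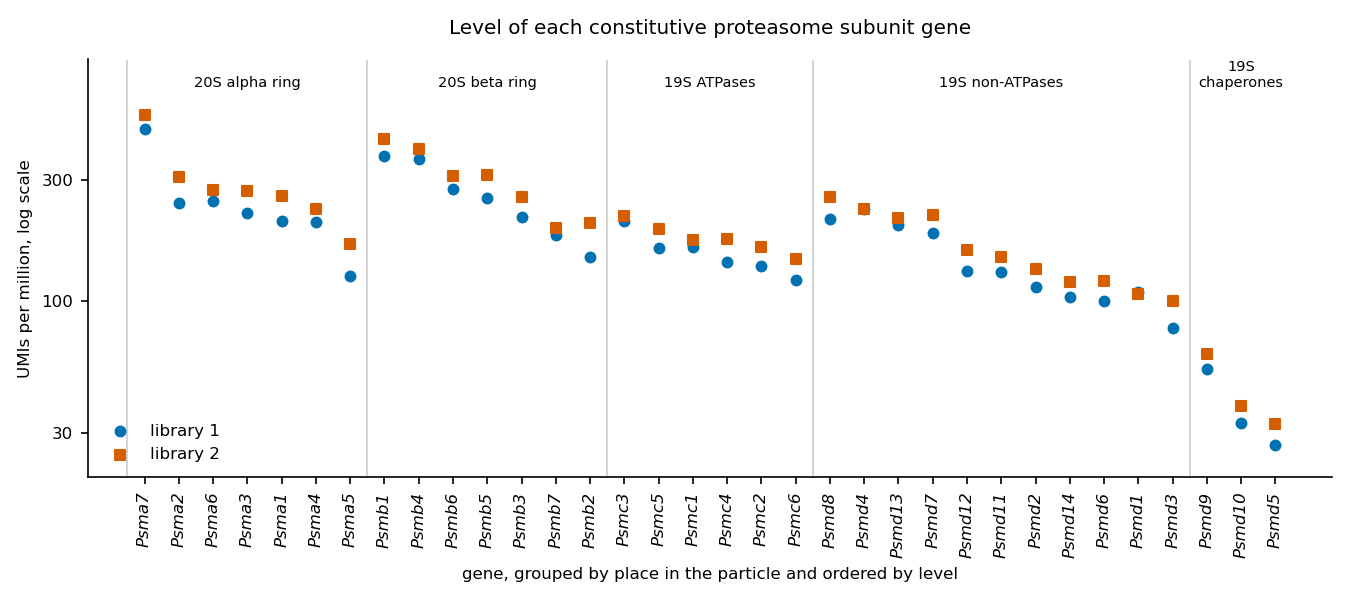
Level of each member in CPM (vertical log axis) in library 1 (circles) and library 2 (squares), grouped by place in the particle and ordered by mean level. Psma7 is highest at 476 and 540, the 3 assembly chaperones are lowest, and the libraries differ far less than the genes.

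The members lie on 15 chromosomes, 6 of them on chromosome 11. In the annotation (GENCODE M21, mm10) Psmb5 spans chr14:54614119-54618022 on the minus strand, Psmc1 chr12:100110154-100123405 and Psma4 chr9:54950790-54958030 on the plus strand. Exons of 7 members overlap a gene on the opposite strand and those of Psmd1 a gene on its own strand. For Psmb3 and Psmd1 the last exon sequence is nearly identical to a listed gene (Gm4950 and Gm21972), so their counts are uncertain.

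Member levels varied with the depth of the cell, and this was measured before the classes were compared because some classes differ in depth. Cells thinned to 3400 UMIs were split by their full depth into 3 equal groups within each library. The summed level was 4337, 5080 and 7093 CPM in the shallow, middle and deep cells of library 1, and 4858, 5763 and 8313 in library 2. It rose with depth in both libraries, and the highest level of the shallow cells lay below the lowest of the deep cells. At an equal 3400 UMIs per cell, the median number of member UMIs went from 14 to 17 to 22 in library 1 and from 16 to 19 to 26 in library 2, the same order. The median mitochondrial share moved with depth, from 15.7% to 8.53% in library 1 and from 16.4% to 7.75% in library 2, and so did cycle makeup: low-cycle cells (few UMIs of S and G2/M genes, defined with the classes) were 36.9% of shallow and 4.11% of deep cells in library 1 and 31.9% and 3.35% in library 2. The part of either in the levels was not tested.

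The depth pattern was uneven among members. Psmb2, a beta ring subunit, had 45.6 and 67.4 CPM in the shallow cells of libraries 1 and 2 and 208 and 276 in the deep cells, log2 ratios of 2.19 and 2.04. Psma5 went from 52.0 and 65.5 to 167 and 220, and the ratios of Psma2, Psmd6, Psma3, Psmb3 and Psma4 were also above 1.1 on the log2 scale in both libraries. By contrast Psmd4, the ubiquitin receptor of the cap, had 231 and 227 in shallow and 229 and 233 in deep cells, and Psmc1, an ATPase that helps to open the gate, had 145 and 169 against 165 and 175. Members of 1 particle thus ranged from a steep gradient to none, and each named member gave similar ratios in both libraries.

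**Figure D2:**
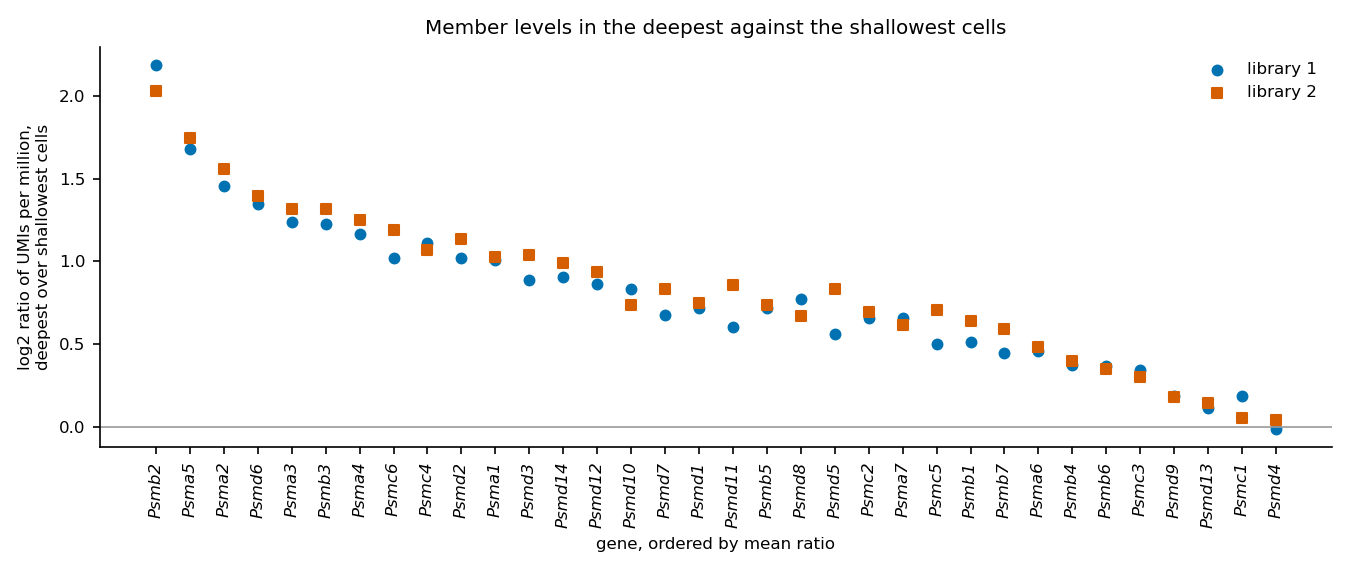
Log2 ratio of each member's CPM in the deepest over the shallowest cells (vertical axis), in library 1 (circles) and library 2 (squares), with members ordered by the mean. Psmb2 stands at 2.19 and 2.04 and Psmd4 at -0.01 and 0.04, and the libraries lie close together for each member.

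Classes were defined on thinned cells. G2/M-high cells were those at or above the 75th percentile of their library for the sum of 53 G2/M genes, S-high cells were at or above it for 43 S phase genes and below the median for the G2/M genes, and low-cycle cells were at or below the 33rd percentile for both. These are ranges of a score and not cell types: 88 and 68 cells (1.88% and 2.17%) lay at or 1 UMI below the G2/M limit. None of the members is in either list. The G2/M-high class held 1187 and 804 cells, the S-high class 567 and 390 and the low-cycle class 826 and 511.

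Against low-cycle cells, S-high cells had more transcripts of nearly all members. The summed level was 6748 and 7840 CPM in S-high cells of libraries 1 and 2 and 4792 and 5265 in low-cycle cells, and the classes did not overlap. In edgeR's quasi-likelihood test (adjusted p below 0.05 over all genes), 33 of 34 members were higher and 0 lower (also 0 at an unadjusted p below 0.05). Of 9974 genes tested, 30.8% were higher and 28.7% lower. DESeq2 called 30 members higher and 0 lower, where it called 30.5% of all genes in either direction. The median log2 fold change was 0.62 over the members and -0.01 over all genes. Psmd10 was the member not called (log2 fold change 0.11).

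G2/M-high cells, set against the same low-cycle cells, had a summed level of 5904 and 6866, again above both low-cycle values. All 34 members were higher in edgeR's test, where 29.0% of 10414 genes were higher and 28.1% lower. The median log2 fold change was 0.46 over the members and -0.02 over all genes. DESeq2 called 26 members higher, where it called 27.5% of all genes in either direction. The 2 comparisons share the low-cycle cells, so their values are given side by side and not as a correlation.

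Among the ATPases, Psmc1 had 176 and 192 CPM in G2/M-high cells, 149 and 160 in S-high cells and 107 and 108 in low-cycle cells. The classes fell in that order without overlap. Its log2 fold change against low-cycle cells was 0.81 ± 0.06 (SE, adjusted p = 7.15e-41, edgeR) for G2/M-high cells, the largest of the members there, and 0.57 for S-high cells. Psmc3, another ATPase whose tail docks into the core, had 218 and 227 in G2/M-high, 207 and 219 in S-high and 151 and 136 in low-cycle cells (log2 fold changes 0.67 and 0.62). Both cycling classes lay above the low-cycle class in both libraries.

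Among the non-ATPases, Psmd14, the deubiquitinase that strips ubiquitin chains from substrates, had 106 and 124 in G2/M-high, 112 and 127 in S-high and 70.2 and 79.7 in low-cycle cells (0.67 and 0.73). Psmd2, a scaffold that docks ubiquitin shuttles, had 112 and 129, 128 and 143, and 71.0 and 87.8 in the same order (0.66 and 0.84). Psmd7, the partner of Psmd14, had 164 and 190, 205 and 256, and 125 and 137 (0.48 and 0.86). All 3 were lowest in low-cycle cells. Psmd8 and Psmb1 stood at the other end, with log2 fold changes of 0.15 and 0.14 in G2/M-high and 0.14 and 0.21 in S-high cells. Psmd4 (0.17 in G2/M-high and 0.29 in S-high cells), Psma7 (0.20 in G2/M-high cells) and the chaperone gene Psmd9 (0.28 in S-high cells) were also among the smallest called changes.

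In the beta ring, Psmb2 had 149 and 189 CPM in G2/M-high, 177 and 240 in S-high and 104 and 126 in low-cycle cells. Its log2 fold change of 0.90 ± 0.07 (SE, adjusted p = 1.75e-40, edgeR) in S-high cells was the largest of the members in that comparison. The peptidase subunits rose as well: Psmb5 by 0.35 and 0.61, Psmb6 by 0.47 and 0.49 and Psmb7 by 0.46 and 0.62 on the log2 scale in G2/M-high and S-high cells. In the alpha ring, Psma5 had 119 and 149 in G2/M-high, 143 and 197 in S-high and 83.6 and 114 in low-cycle cells. The classes were ordered alike in both libraries, although their ranges overlapped across libraries. With the depth group as a term, Psmb2 and Psma5 were at -0.14 and -0.11 in S-high cells (not called) and Psmb5 at -0.06 in G2/M-high cells (not called).

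Low-cycle cells were shallower, with median depths of 5311 and 5603 UMIs against 10761 and 10534 in G2/M-high and 10092 and 10796 in S-high cells. With the depth group as a term in the edgeR fit, an alternative chosen after seeing the data, 5 members were higher and 8 lower in G2/M-high cells (median log2 fold change -0.06, with 19 of the 34 calls turned in sign), and 18 were higher and 1 lower in S-high cells (median 0.24, with 6 of the 33 calls turned in sign). In these fits 49.96% of 8249 genes and 42.31% of 8092 genes were called, in either direction. The calls that stayed higher in G2/M-high cells were Psmc1 (0.75), Psmc3 (0.49), Psmd13 (0.33), Psmb6 (0.24) and Psma6 (0.24), while Psma7, Psma5, Psma4, Psma3, Psma2, Psmb3, Psmb1 and Psmd8 were called lower. Summed macrophage marker levels were also higher in low-cycle cells (105 and 19.8 CPM, against at most 3.03 in the other 2 classes), and without the 20 and 10 barcodes with other-lineage UMIs the count remained 34 in G2/M-high and 33 in S-high cells.

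**Figure D3:**
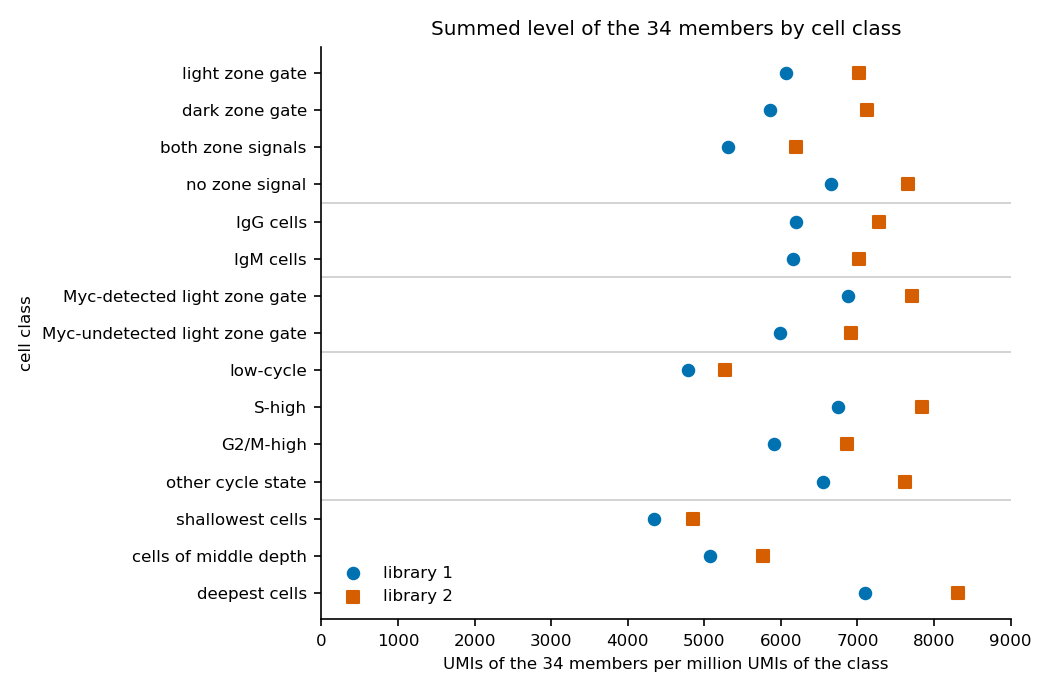
Summed level of the 34 members in CPM, over all UMIs of each cell class (horizontal axis, from 0) in library 1 (circles) and library 2 (squares). Low-cycle cells (4792 and 5265) lie below S-high cells (6748 and 7840). The light and dark zone gates lie close together, as do the isotypes, while cells with both zone signals (5312 and 6191) lie below those with no zone signal (6661 and 7658). The shallowest and deepest cells span the widest range.

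Set against each other, G2/M-high and S-high cells had similar depths, and most members were lower in G2/M-high cells. This comparison was added after the depth of the low-cycle cells was seen, and it shares both classes with those above. In edgeR's test 25 members were lower, 1 was higher and 8 were not called, where 28.0% of 10434 genes tested were lower and 26.0% higher. The median log2 fold change was -0.23 over the members and -0.00 over all genes, and 33 of 34 members had the same sign in both libraries. With the depth group as a term 23 members were lower and 1 higher, where 51.6% of 8721 genes were called in either direction.

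The alpha ring was lowest relative to S-high cells, with 6 of 7 members lower and a median of -0.32. Psma4 had 173 and 200 CPM in G2/M-high cells and 245 and 274 in S-high cells, with no overlap, and its log2 fold change was -0.48 ± 0.04 (SE, adjusted p = 1.30e-28, edgeR). Psma7 had 411 and 471 against 570 and 628, again with no overlap, and -0.45 ± 0.03. Psma5 had 119 and 149 against 143 and 197 and -0.34. Psma6 was the alpha subunit not called, with 245 and 266 against 248 and 296.

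In the beta ring 5 of 7 members were lower (median -0.15). Psmb5 had 238 and 293 CPM in G2/M-high cells and 284 and 350 in S-high cells, a log2 fold change of -0.26 ± 0.04 (SE, adjusted p = 3.01e-10, edgeR). It was lower in both libraries, at -0.26 and -0.24. Psmb7 had 173 and 189 against 196 and 205 (-0.15). Psmb6, by contrast, had 275 and 310 against 279 and 313, a log2 fold change of -0.02 ± 0.04 that did not pass the test. The peptidase subunits thus gave different calls, and the difference between them was not tested. Psmb4, which carries no peptidase site, was lower at -0.09.

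In the cap, 9 of 11 non-ATPases were lower (median -0.26), and Psmd7 was the lowest of them at -0.38, with 164 and 190 CPM against 205 and 256. Psmd13 (-0.09) and Psmd4 (-0.11) were lower by the least, and Psmd8 and Psmd14 were not called. Of the ATPases 4 of 6 were lower, and Psmc1 was the member that was higher, at 0.24 ± 0.05 (SE, adjusted p = 4.48e-07, edgeR), with 0.23 in library 1 and 0.27 in library 2. Its ring partners Psmc5 (-0.29) and Psmc4 (-0.27) were lower, so subunits of 1 ring had opposite signs.

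**Figure D4:**
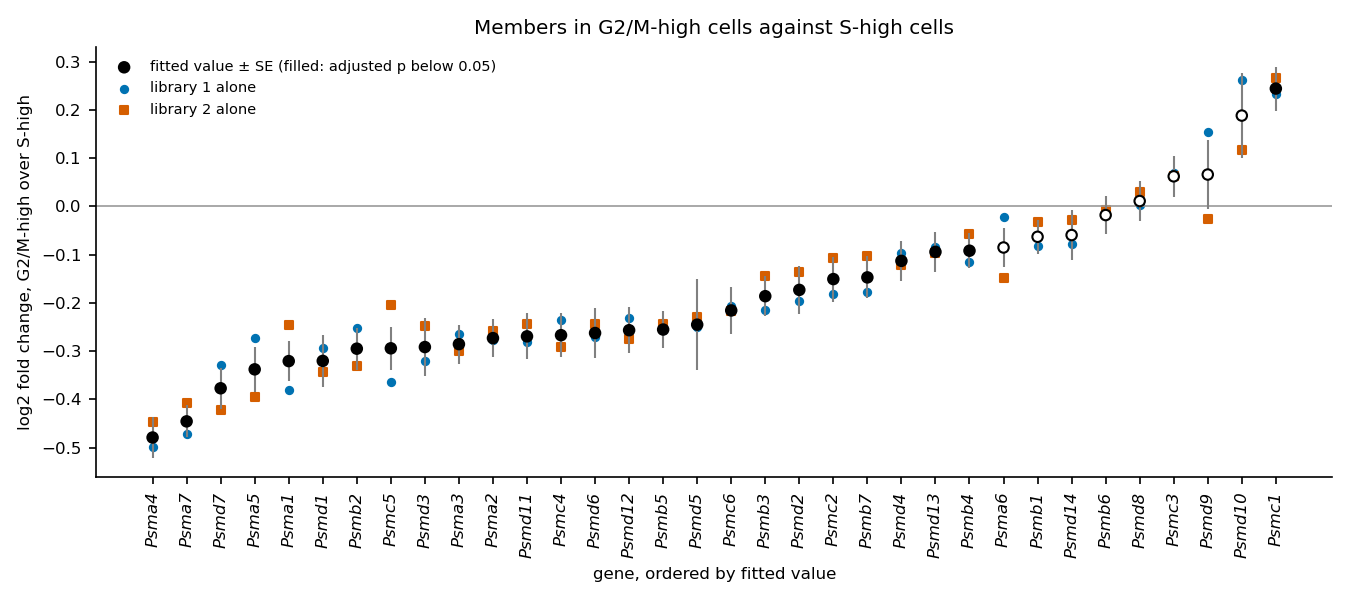
Log2 fold change of each member in G2/M-high over S-high cells (vertical axis), as the fitted value with its SE (black, filled where the adjusted p is below 0.05) and in library 1 (circles) and library 2 (squares) alone. Psma4 (-0.48) and Psma7 (-0.45) are lowest and Psmc1 (0.24) is highest, with both libraries close to the fitted value.

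Other genes of the pathway were taken from a list of 33 genes outside the members. Of these, 17 were lower and 6 higher in G2/M-high than in S-high cells. All 5 assembly genes tested were lower, led by Psmg1, which with Psmg2 forms a chaperone that assembles the alpha ring, with 21.4 and 27.1 CPM against 38.6 and 54.6 (log2 fold change -0.93). Its partner Psmg2 followed at -0.55. Among the higher ones was Ubb, a polyubiquitin gene that encodes ubiquitin itself, at 1718 and 2180 against 1074 and 1382 (0.67). Nfe2l1, the transcription factor known to raise proteasome genes when proteasome activity is limiting, had 22.8 and 20.6 against 17.4 and 16.6 (0.36), and 33.6 and 40.2 in low-cycle cells. It was thus lowest in S-high cells, and its relation to the member levels was not tested. Ngly1, an enzyme that processes it, was higher by 0.82, whereas Ddi2, the protease that cleaves it, and the related factor Nfe2l2 were lower (-0.25 and -0.24).

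Against low-cycle cells, 2 of the 3 enzymes bound to the proteasome were higher in both cycling classes. The values in this paragraph are from fits without the depth group as a term, and low-cycle cells were shallower. Uchl5, a deubiquitinase, had 96.6 and 105 in G2/M-high, 113 and 120 in S-high and 46.1 and 48.5 in low-cycle cells (log2 fold changes 1.14 and 1.36). Usp14, another deubiquitinase, changed by 0.82 and 0.93. Both exceeded every member's log2 fold change in S-high cells. The remaining enzyme, the ubiquitin ligase Ube3c, was lower in S-high cells (-0.38) and not called in G2/M-high cells (-0.09). Of the immunoproteasome genes, Psmb10, which takes the place of Psmb7, was lower, with 124 and 132 in G2/M-high, 153 and 156 in S-high and 187 and 195 in low-cycle cells (-0.52 and -0.24), Psmb9, which takes the place of Psmb6, was higher (0.24 and 0.19), and Psmb8 was not called in either (0.02 and 0.07). Psme1, a subunit of the activator that caps the core in place of 19S, was lower (-0.40 and -0.19), and its partner Psme2 was lower in G2/M-high cells (-0.40) and not called in S-high cells (-0.04). Psme3, of the nuclear activator, was higher in both (0.35 and 0.78), and the inhibitor Psmf1 was higher in S-high cells (0.26) and not called in G2/M-high cells (0.13). Psme4, another activator, was not called in either (0.19 and -0.05).

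The light and dark zone gates were read as RNA. Cells with a UMI of Cd83 or Cd86 but without Cxcr4 formed the light zone gate (1672 and 1177 cells), and those with Cxcr4 but without Cd83 and Cd86 the dark zone gate (744 and 464 cells). The summed member level was 6067 and 7025 CPM in the light zone gate and 5861 and 7126 in the dark zone gate. The sums overlapped and differed in opposite directions in the libraries. Cells with UMIs of both gates had 5312 and 6191 CPM and cells with neither 6661 and 7658, at median depths of 7400 and 7764 against 10592 and 10390 UMIs. These 2 classes were not tested. In edgeR's test 6 members were higher in the light zone gate, where 15.0% of 10682 genes were higher, and 4 were lower, where 11.9% were lower. These shares of the members (of 34) lie near those of all genes. The median log2 fold change was 0.01 over the members and 0.00 over all genes.

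The members called higher in the light zone gate were core subunits, with 1 exception. This describes the called members only. By place, the median log2 fold changes were 0.18 for the alpha ring, 0.01 for the beta ring, -0.03 for the ATPases, 0.01 for the non-ATPases and -0.08 for the chaperones. Psmb2 had 157 and 211 CPM in the light zone gate and 119 and 183 in the dark zone gate, a log2 fold change of 0.30 ± 0.06 (SE, adjusted p = 8.79e-06, edgeR). It was higher in both libraries, though the gates overlapped across libraries. Psma5 (0.23), Psma2 (0.19), Psma3 (0.18) and Psma4 (0.18) of the alpha ring were higher, as was Psmd3, a lid subunit of the cap (0.21), which turned to -0.01 with gates of 2 UMIs. The members called lower belong to the cap. Psmc1 had 150 and 155 in the light zone gate and 187 and 194 in the dark zone gate, without overlap, and its log2 fold change was -0.32 ± 0.06 (SE, adjusted p = 1.19e-06, edgeR). Psmc3 (-0.18), Psmd4 (-0.18) and Psmd13 (-0.15), a lid subunit, were lower as well. The peptidase subunits Psmb5 (0.03), Psmb6 (-0.12) and Psmb7 (-0.14) were not called. Sums of thinned counts gave 1 member higher and 4 lower, where 15.48% of genes were called. Gates of 2 UMIs gave 2 higher and 4 lower (21.63%), and a mitochondrial limit of 10% gave 3 and 4 (19.67%). A limit of 40% (33.2%) and the set without the deepest 6% of barcodes (27.35%) each gave 8 higher and 6 lower.

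The gates differed in cell cycle makeup: 19.3% and 18.6% of light zone gate cells were G2/M-high, against 32.3% and 31.7% in the dark zone gate. With cycle state as a term, 7 members were higher and 4 lower, where 22.17% of 8911 genes were called in either direction, and all 10 original calls were kept. Without library as a block edgeR called 0 members (1 at an unadjusted p below 0.05), and DESeq2 with the block called 2. These 2 fits called 2.31% and 6.06% of all genes. Within cycle states the summed level was 5920 and 6575 in G2/M-high light zone gate cells and 5444 and 6857 in G2/M-high dark zone gate cells, and for S-high cells it was 6800 and 7738 against 6065 and 6861, so that S-high cells of the light zone gate lay above those of the dark zone gate in each library. The order differed between the libraries in the other states: low-cycle cells had 4741 and 5306 in the light and 4665 and 5476 in the dark zone gate, and the remaining cells 6351 and 7501 against 6287 and 7568. These values within states carry no test. In the light zone gate 9 of the 33 pathway genes were higher and 2 were lower, among them Psme2 (0.47) and Psme1 (0.28) of the activator, Psmb10 (0.33) and the assembly genes Psmg2 (0.46) and Psmg1 (0.34), while Vcp, the segregase that extracts ubiquitin-tagged proteins, was lower (-0.20).

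Within the light zone gate, Myc-detected cells (1 UMI of Myc or more, 115 cells in each library) were compared with the rest (1557 and 1062). Their summed member level was 6878 and 7711 CPM against 5992 and 6917. Myc-detected cells were higher in each library, and the classes overlapped across libraries. In edgeR's test 15 members were higher and 0 lower (also 0 at an unadjusted p below 0.05). Of 10094 genes tested, 13.0% were higher and 8.81% lower. DESeq2 called 7 members higher and 0 lower, where it called 5.98% of all genes in either direction. The median log2 fold change was 0.19 over the members and -0.01 over all genes.

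Psmd7 had 233 and 306 CPM in Myc-detected and 184 and 198 in Myc-undetected cells, and its log2 fold change was 0.52 ± 0.08 (SE, adjusted p = 1.59e-09, edgeR). Psmb2 had 224 and 265 against 151 and 203 (0.49), and Psma5 had 179 and 207 against 125 and 162 (0.46). Each of these 3 was higher in Myc-detected cells of both libraries. Psmd11, a lid subunit that clamps the cap to the core, had 173 and 192 against 130 and 146 (0.42), without overlap. Of the peptidase subunits Psmb5, at 298 and 347 against 246 and 298, was higher by 0.27, and Psmb7 by 0.22, while Psmb6 (0.16) was not called. Psma7 (0.23) and Psmc5 (0.21) were among the smallest called changes. By place, 5 of 7 alpha ring, 4 of 7 beta ring, 1 of 6 ATPase, 5 of 11 non-ATPase and 0 of 3 chaperone genes were higher. Psmc1 (-0.09) and Psmd13 (-0.11) were not called.

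Myc-detected cells were deeper, at medians of 9774 and 11338 UMIs against 8019 and 8386.5, and had lower median mitochondrial shares, at 12.3% and 9.74% against 13.2% and 13.3%. With the depth group as a term, 2 members stayed higher in edgeR's test, Psmd7 (0.33, adjusted p = 0.00476) and Psmd11 (0.34, adjusted p = 0.00575), with a median of 0.06. With that term 14.23% of 8283 genes were called in either direction. Sums of thinned counts gave 0 calls (11 members higher at an unadjusted p below 0.05) at a median of 0.15. With these sums 3.997% of 8807 genes were called in either direction. In the fit without the depth group 10 of the pathway genes were higher: Psmg2 (0.87), Psmg1 (0.65), Psme3, a nuclear activator (0.62), Usp14 (0.47) and Uchl5 (0.34) were among them. Psmb8, Psmb9 and Psmb10 were not called in that fit.

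IgG cells (2192 and 1437) and IgM cells (1775 and 1323) had at least 5 heavy chain UMIs, at least 80% of 1 kind. Their summed member levels were 6201 and 7283 against 6160 and 7024 CPM, and the ranges overlapped. Psmd4 alone was called, with 238 and 239 CPM in IgG and 217 and 219 in IgM cells, a log2 fold change of 0.11 ± 0.04 (SE, adjusted p = 0.0383, edgeR). It was higher in both libraries without overlap, but DESeq2 called 0 members (0 at an unadjusted p below 0.05), as did edgeR without the barcodes with other-lineage UMIs (5 at an unadjusted p below 0.05). Across all genes 5.81% were higher and 8.16% lower, of 11231, and the median was 0.01 over the members and 0.01 over all genes. Member log2 fold changes ran from -0.10 (Psmd8) to 0.11, and the peptidase subunits Psmb5 (0.01), Psmb6 (0.09) and Psmb7 (0.06) were not called. At a mitochondrial limit of 40%, 2 members were higher and 18 lower, where 28.85% of 11603 genes were called in either direction. At 10%, 5 were higher and 0 lower, where 12.96% of 10450 genes were called. The direction of most members in this comparison thus changed with that limit. The call of Psmd4 was also lost at the limit of 10%, at an isotype limit of 95%, with sums of thinned counts and without library as a block. It was kept at the limit of 40%, with no low-count filter, and with cycle state or the depth group as a term. Leaving out the deepest 6% of barcodes, or immunoglobulin and mitochondrial genes, also kept it.

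**Figure D5:**
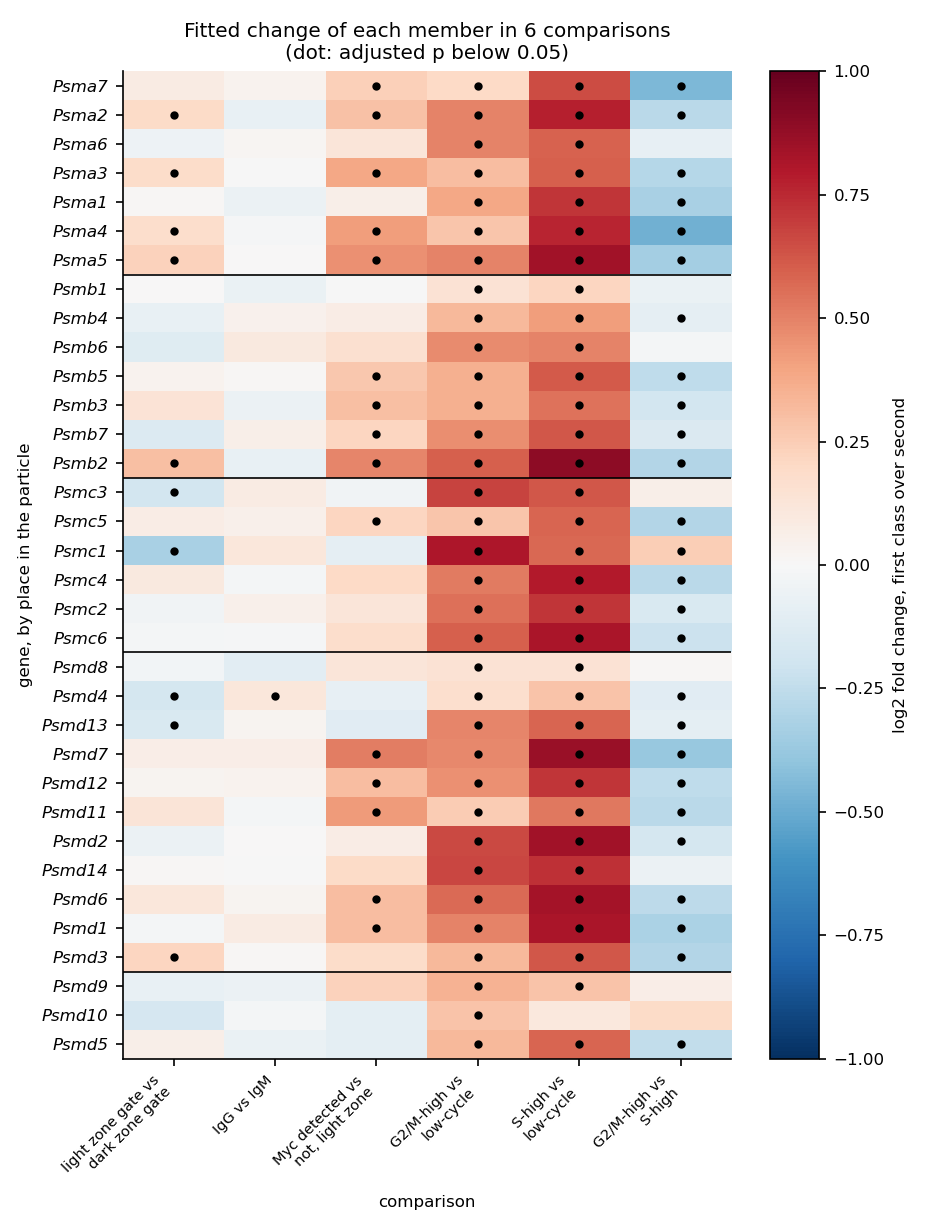
Fitted log2 fold change of each of the 34 members (rows, by place in the particle) in the 6 comparisons (columns), red where the first-named class is higher and blue where it is lower, with a dot where the adjusted p is below 0.05. All members are red in G2/M-high against low-cycle cells, 25 are called lower in G2/M-high against S-high cells, and the isotype column holds 1 dot.

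Side by side, Psmc1, Psmc3, Psmd4 and Psmd13 were lower in the light zone gate (-0.32, -0.18, -0.18 and -0.15) and not called with Myc (-0.09, -0.03, -0.08 and -0.11), whereas Psmb2, Psma5, Psma2, Psma3 and Psma4 were higher in both. Psmc1, Psmc3, Psmd4 and Psmd13 were also among the members with the smallest depth ratios (log2 means of 0.12, 0.32, 0.01 and 0.13), and Psmb2 and Psma5 had the largest (2.11 and 1.71). With the depth group as a term, the zone calls for these 9 genes were all kept, whereas the Myc calls of Psmb2, Psma5, Psma2, Psma3 and Psma4 were lost. The comparisons share light zone gate cells, and no test was made across them.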

How the data were processed

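The values are counts of UMIs per gene and barcode, deposited without normalization as 1 matrix per library (10x 3′ chemistry per the labels' protocols). Per the file headers, Cell Ranger 3.0.2 made them, on mm10 per the submitters' processing notes; the annotation and the cell-calling rule are not given in the sources used here. Reads that match several genes are a limit for near-identical copies.

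Counts were summed per library and cell class and tested with edgeR 4.0.16 in R 4.3.3 (TMM scaling, filterByExpr, quasi-likelihood with robust dispersion), with library as a block, since every class occurs in both libraries and cells of 1 library share its preparation. P-values were Benjamini-Hochberg adjusted over all genes tested, with a threshold of 0.05. With 2 libraries, each main fit has 1 residual degree of freedom and rests on a spread shared across genes. In fits with the depth group or cycle state as a term, counts were summed per group within each library. Those sums entered as separate samples although they are not replicates, so their p-values count more samples than there are libraries. Gates and cycle classes were read from cells thinned at random to 3400 UMIs, which left out 465 and 391 shallower cells and kept 4677 and 3135. Doublets were not called, and an alternative left out the deepest 6% of barcodes. DESeq2 1.42.0 was an alternative. The fits were tested on simulated data. Promoters and exons were matched by symbol and gene identifier, and 3′ ends compared with blastn 2.17.0 (last 300 bases, at least 95% identity over 90 bases).

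The members and the gene lists were chosen with earlier results of these data known. Every member may be named; those chosen for each comparison are the 4 largest and 4 smallest called changes per comparison with the same sign in both libraries, and Psmb5, Psmb6 and Psmb7. The comparison of G2/M-high with S-high cells and the depth groups were added after seeing the data. The values of 1 gene of the pathway list and 1 of the marker lists are not reported here.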

Additional observations from a re-analysis of the deposited data

How the results depend on the processing

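The numbers of members called were recomputed under each alternative with the other choices kept. Percentages in brackets are the share of all genes tested that were called in the same fit. For the light against the dark zone gate (10 called, 26.8%), DESeq2 called 2 (6.06%), sums of thinned counts 5 (15.5%), gates of 2 UMIs 6 (21.6%) and the fit with no replicate block 0 (2.31%). For IgG against IgM cells (1 called, 14.0%), DESeq2 (2.44%), the fit with no replicate block (0.819%) and the set without barcodes with other-lineage UMIs (11.7%) called 0. No low-count filter gave 2 (9.15%), cycle state as a term 3 (14.6%), and sums of thinned counts (9.03%) and the depth group as a term (14.6%) 4. A mitochondrial limit of 10% (13.0%) and an isotype limit of 95% (13.6%) gave 5. The set without the deepest 6% of barcodes gave 10 (17.1%) and a mitochondrial limit of 40% gave 20 (28.85%). For Myc-detected cells (15 called, 21.84%), DESeq2 called 7 (5.98%), no replicate block 2 (8.22%) and sums of thinned counts 0 (3.997%). In the same comparison, the set without the deepest 6% of barcodes gave 6 (11.11%) and the depth group 2 (14.23%). For G2/M-high against low-cycle cells (34 called, 57.1%), no replicate block gave 21 (40.2%), a mitochondrial limit of 10% 19 (41.7%), sums of thinned counts 22 (43.6%), the set without the deepest 6% of barcodes 22 (53.5%) and the depth group 13 (49.96%). For S-high against low-cycle cells (33 called, 59.5%) the depth group gave 19 (42.3%). For G2/M-high against S-high cells (26 called, 54.0%), no replicate block gave 4 (29.0%) and sums of thinned counts 14 (34.8%). The other counts stayed within 1.5 times.

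With the depth group as a term, 19 of 34 calls in G2/M-high and 6 of 33 in S-high against low-cycle cells turned in sign (8 and 1 of them called). With that term the median over members in G2/M-high against low-cycle cells went from 0.46 to -0.063, and among the genes chosen for each comparison Psmb5 (-0.060), Psma7 (-0.23), Psmd8 (-0.34) and Psmb1 (-0.29) turned negative there. In S-high against low-cycle cells Psmb2 (-0.14), Psma5 (-0.11), Psmb1 (-0.14) and Psmd8 (-0.31) turned negative. Psmd8 was also at -0.011 in both of these comparisons with sums of thinned counts and at -0.021 in G2/M-high cells without the deepest 6% of barcodes, and Psma7 was at -0.015 there at a mitochondrial limit of 10%. Psmd3 was at -0.014 with gates of 2 UMIs, and Psmb5 in IgG cells at -0.066 at a mitochondrial limit of 40%. In IgG against IgM cells, 19 members were positive, and 7 were at a mitochondrial limit of 40%. The cause was not tested.

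With 1 library left out no residual degree of freedom is left, so the other library gives a median and no test. Over the members these medians were -0.02 and 0.03 for the zone gates, -0.01 and 0.02 for isotypes, 0.17 and 0.23 for Myc, 0.43 and 0.45 for G2/M-high and 0.61 and 0.67 for S-high against low-cycle cells, and -0.22 and -0.21 for G2/M-high against S-high cells. The depth group was an alternative chosen after seeing the data.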
